A study of Mus musculus with 25 samples.

Results

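The first day after doxycycline (dox) removal was examined in pituitary tumors of sh*Rb* mice, in which dox switches on a short hairpin RNA against the retinoblastoma gene *Rb1*. The comparison sets 4 mice that had 16 weeks of dox and then 1 day without it (1d -dox) against 3 mice that were still on dox at 16 weeks (16w +dox). These are 7 of the 25 RNA-seq samples of the series and 7 of the 13 short-term samples. The 4 mice at 1d -dox were female and the 3 mice at 16w +dox were male, so that the day off dox and the sex of the mice cannot be told apart. According to the study, the drinking water with dox also held sucrose, and the water given after dox removal did not. Loss of dox and loss of sucrose therefore cannot be told apart either. The other 6 short-term mice, 3 males at 3d -dox and 3 females at 5d -dox, serve as points of reference. The mice shared 2 transgenes. The hairpin, named shRb5, follows the coding sequence of green fluorescent protein (*GFP*) under a dox-responsive promoter, and the dox-dependent activator (M2-rtTA) is driven from the *Rosa26* locus. The line descends from 1 clone of embryonic stem cells, no group without the hairpin was sequenced, and the age of each mouse is not given in its labels. *Rosa26* is active in many cell types, so the knock-down is not limited to tumor cells.

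RB binds E2F transcription factors and keeps genes of DNA replication and mitosis switched off until a cell is committed to divide. Loss of RB in mice gives tumors of the pituitary that arise mainly from melanotrophs, the cells of the intermediate lobe that make the hormone precursor *Pomc*. The other hormone cells of the gland, among them gonadotrophs, somatotrophs, lactotrophs and thyrotrophs, lie in the anterior lobe with a dense network of vessels.

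The target of the hairpin is shown because removal of dox switches off the RNA that acts on it. The 21-base site lies at chr14:73206076-73206096 (GRCm38), on the minus strand, in the coding part of exon 22 of the 27 exons of *Rb1*.
shRb5 target: gaggagtttgattccattata

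*GFP*, the reporter transcribed together with the hairpin, checks the labels. Its level was 1360.4, 1024.8 and 1354.3 FPM (the reads of a gene scaled by library, as deposited) in the mice at 16w +dox and 741.0, 310.0, 702.1 and 670.4 FPM in those at 1d -dox. The groups did not overlap. The mean was 2.06-fold lower, at 606 ± 199 FPM (SD, n = 4) against 1246 ± 192 (SD, n = 3). The exact two-sided permutation p over the 7 mice was 0.0286, the smallest that 4 against 3 mice can give. In the fit over all genes, *GFP* had a log2 fold change of -1.11 ± 0.29 (SE) and an adjusted p of 0.129, so it did not pass the threshold there. The reporter was at 80.7 to 171 FPM in the mice at 3d -dox and at 9.34 to 15.2 FPM at 5d -dox. The 1d -dox mice thus held intermediate levels, and 1d -dox replicate 2 had the lowest value of its group.

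*Rb1* itself, the target of the hairpin, was at 4.89, 3.47 and 4.21 FPM in the mice on dox and at 3.84, 3.76, 6.03 and 4.21 FPM at 1d -dox. These values overlapped. The log2 fold change was 0.07 ± 0.16 (SE, adjusted p = 0.896), and the exact permutation p was 0.8286. Without 16w +dox replicate 2 the value was -0.05 and without 1d -dox replicate 3 it was -0.07, so no direction can be given.

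**Figure D1:**
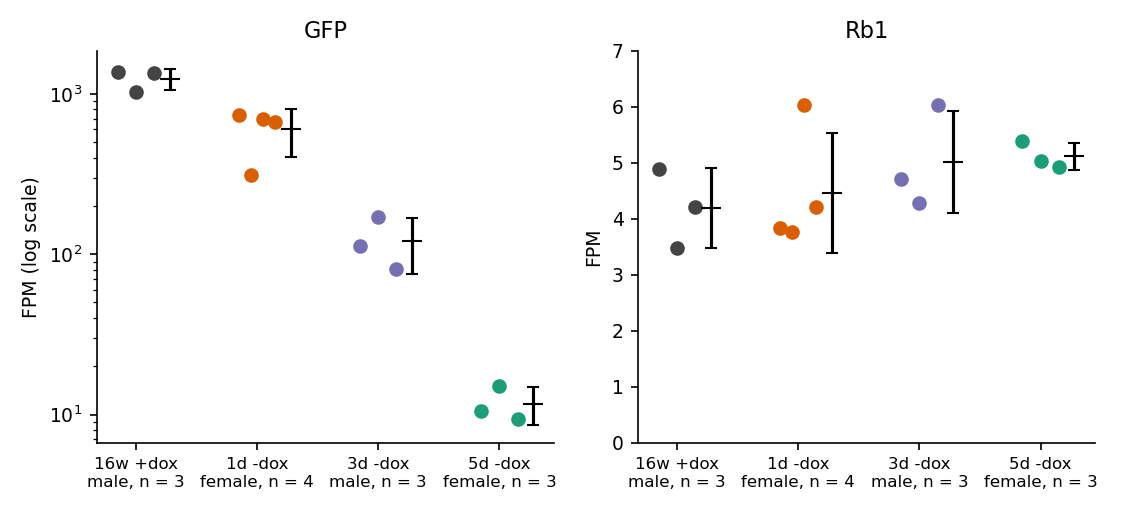
Levels of *GFP* (FPM, log scale, left) and *Rb1* (FPM, linear scale, right) in each short-term mouse, with the mean and SD of each group beside the points. The 4 mice at 1d -dox lie between 310.0 and 741.0 FPM of *GFP*, below the 3 mice on dox, while their *Rb1* values overlap those on dox.

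These 7 libraries held 9573101 to 12205841 reads on genes, and *Pomc* took 8.99% to 15.2% of them. The share of reads on the summary lines that name no gene was 68.8% to 71.56% at 16w +dox. At 1d -dox it was 71.64% to 74.5%, so the groups did not overlap, by a narrow gap. Whether this share weighed on single genes was not tested. The log2 fold change of *Pomc* was -0.07 (adjusted p = 0.968). Melanotroph and corticotroph markers gave a median log2 fold change of 0.08. Of these, 0 of 10 had an unadjusted p under 0.05, beside 6.78% of all genes on the higher side and 6.28% on the lower side. The median turned to -0.10 without 16w +dox replicate 2, so no direction can be given for these markers. The library 16w +dox replicate 2 stood apart from the other 2 of its group. It lay at -37.1 on the second principal component, where the other 6 mice of the comparison lay between -7.13 and 10.4, and it had 51.1 FPM of *Cga* against 4.52 and 7.38 in its group mates and 30.2 FPM of *Greb1* against 0.549 and 0.970. Where this library decides a call, the value without it is given too. Of the genes of the table that matched RefSeq, 1 lies on chromosome X and 0 lie on chromosome Y, and the sexes were not checked with sex-linked genes.

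Which transcripts differed 1 day after dox removal was tested over 13958 genes. A gene was called when its adjusted p (limma, Benjamini-Hochberg) was under 0.05 and its absolute log2 fold change was over 1. *Hs3st6*, a heparan sulfate sulfotransferase gene, was the 1 gene called higher, and 5 genes were called lower (*Lhb*, *Tgfbr3l*, *Shisa9*, *Cdh5* and *Mylk*). On GRCm38.p6 *Hs3st6* lies at chr17:24752988-24758690, *Lhb* at chr7:45417608-45421855, *Tgfbr3l* at chr8:4248214-4251423, *Shisa9* at chr16:11983593-12270904, *Cdh5* at chr8:104101613-104144504 and *Mylk* at chr16:34745199-35002436. These 6 are 0.043% of the genes tested (0.00716% higher and 0.0358% lower). Without the fold limit, 14 genes (0.1%) had an adjusted p under 0.05, 6 higher (0.043%) and 8 lower (0.0573%). Over the whole table the median difference was -0.0018 on the log2 scale. Unadjusted p-values under 0.05 were found for 946 genes on the higher side (6.78%) and 877 on the lower side (6.28%), and the groups did not overlap in 781 genes on each side (5.6% each).

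The short list depended on the test and on single mice. With DESeq2, run on the recovered reads, 29 genes were higher (0.208%) and 84 were lower (0.602%), and 17 and 18 when 16w +dox replicate 2 was left out. With edgeR the counts were 0 and 5 (0.0358% lower), with 1878 genes at an unadjusted p under 0.05. Scaling by the totals of reads called 1 gene on each side, and TMM scaling called 2 higher and 5 lower. With limma 0 genes were called when 16w +dox replicate 1, 1d -dox replicate 1 or 1d -dox replicate 2 was left out, although 1913, 1565 and 1774 genes then had an unadjusted p under 0.05. Over the 7 fits that left out 1 mouse each, *Lhb* and *Hs3st6* kept their calls in 4, *Shisa9* and *Mylk* in 2, and *Tgfbr3l* and *Cdh5* in 1. The calls of *Lhb*, *Hs3st6* and *Shisa9* were kept without 16w +dox replicate 2.

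**Figure D2:**
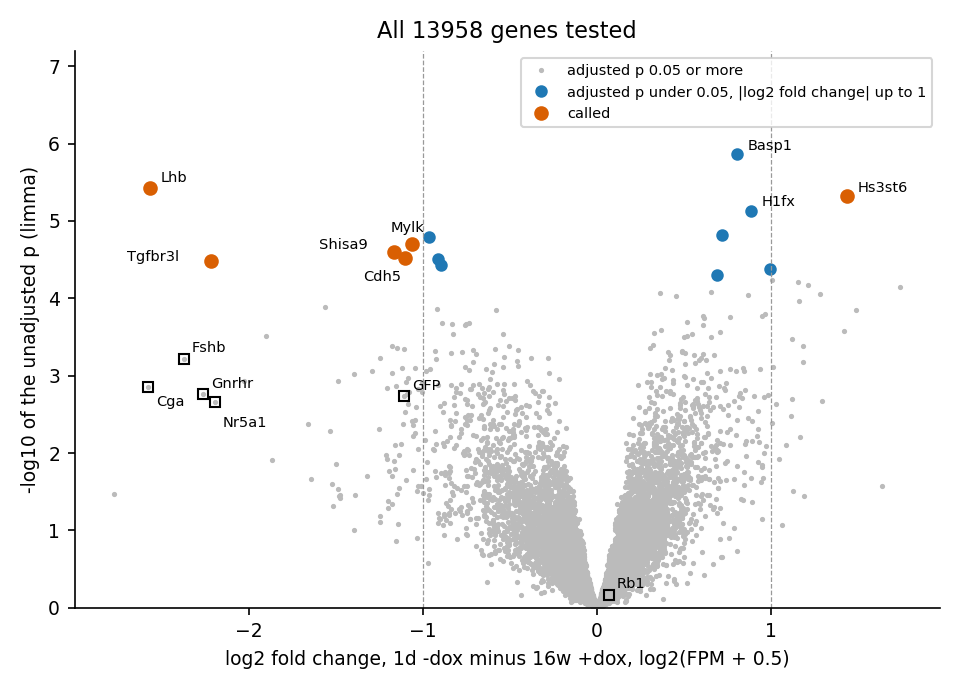
Log2 fold change at 1d -dox relative to 16w +dox (x axis) and -log10 of the unadjusted limma p (y axis) for each of the 13958 genes tested. Orange points are the 6 called genes, blue points the other 8 genes with an adjusted p under 0.05, and open squares mark *GFP*, *Rb1* and 4 gonadotroph genes that were not called.

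The lower side was led by genes of gonadotrophs, the anterior lobe cells that secrete luteinizing hormone and follicle-stimulating hormone. Each hormone pairs its own beta subunit (*Lhb* or *Fshb*) with a shared alpha subunit (*Cga*). Gonadotrophs respond to hypothalamic GnRH through its receptor (*Gnrhr*), and the nuclear receptor SF-1 (*Nr5a1*) maintains their identity. SF-1 and EGR1 bind the *Lhb* promoter in these cells, and *Tgfbr3l* encodes a co-receptor for inhibin B, the peptide that restrains *Fshb*. The 250 bases before the starts that the RefSeq promoter table of GRCm38.p6 uses for *Lhb* (chr7:45420696-45420945, plus strand), *Tgfbr3l* (chr8:4247964-4248213, plus strand) and *Fshb* (chr2:107059652-107059901, minus strand) are shown because the first 2 are the called genes of the group and the third is their companion hormone gene. The start used for *Lhb* lies within the longer gene interval given above. Capitals mark matches to an SF-1 half-site (AAGGTCA) or an EGR core (GGGGGCG) on either strand.
Lhb: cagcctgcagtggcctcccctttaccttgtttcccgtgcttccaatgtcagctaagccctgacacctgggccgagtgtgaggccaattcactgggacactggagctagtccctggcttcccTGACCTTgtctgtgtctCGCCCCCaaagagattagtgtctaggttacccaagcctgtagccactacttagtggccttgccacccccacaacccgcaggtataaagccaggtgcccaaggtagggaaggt
Tgfbr3l: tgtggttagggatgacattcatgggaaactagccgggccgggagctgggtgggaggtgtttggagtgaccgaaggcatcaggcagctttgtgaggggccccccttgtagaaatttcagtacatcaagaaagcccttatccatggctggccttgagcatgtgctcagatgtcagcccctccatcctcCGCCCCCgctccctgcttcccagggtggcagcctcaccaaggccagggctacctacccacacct
Fshb: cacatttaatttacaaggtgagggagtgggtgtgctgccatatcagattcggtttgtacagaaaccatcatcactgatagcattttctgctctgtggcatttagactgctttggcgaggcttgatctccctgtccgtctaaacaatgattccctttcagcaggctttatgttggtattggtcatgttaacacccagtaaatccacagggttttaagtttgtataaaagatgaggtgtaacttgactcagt

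Both motifs lie in the *Lhb* stretch, beginning 129 and 112 bases before the start. *Tgfbr3l* holds the EGR core at 64 bases, and the *Fshb*, *Cga* and *Gnrhr* stretches hold neither, while *Nr5a1* has no entry. Over the 32851 promoters of the table, 4.08% hold the half-site and 14.8% the EGR core. The matches describe the letters alone.

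*Lhb* was lower in the females at 1d -dox than in the males on dox. It was at 4.74, 1.95 and 6.00 FPM at 16w +dox and at 0.180, 0.214, 0.199 and 0.374 FPM at 1d -dox, with no overlap. Its mean was 17.5-fold lower and its log2 fold change was -2.57 ± 0.35 (SE, adjusted p = 0.0221), and it was still called without 16w +dox replicate 2 (-2.98, adjusted p = 0.00315).

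*Tgfbr3l* was at 2.90, 7.54 and 4.24 FPM on dox and at 0.954, 0.275, 0.324 and 1.01 FPM at 1d -dox. It was also lower at 1d -dox, by 2.22 on the log2 scale (SE 0.37, adjusted p = 0.0420). Here the library that stood apart held the highest value, and without it the log2 fold change was -1.88 with an adjusted p of 0.108.

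*Fshb* was at 5.22, 0.882 and 9.57 FPM at 16w +dox and at 0.258, 0.0916, 0.349 and 0.748 FPM at 1d -dox. The groups did not overlap, and the log2 fold change of -2.37 ± 0.54 missed the threshold (adjusted p = 0.104). Without 16w +dox replicate 2, which was the lowest mouse on dox for this gene, it was -3.19 with an adjusted p of 0.00492.

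*Cga* was at 4.52, 51.1 and 7.38 FPM on dox and at 1.44, 0.733, 1.47 and 3.84 FPM at 1d -dox. Its log2 fold change was -2.58 ± 0.65 (adjusted p = 0.125), and -1.56 without replicate 2. *Gnrhr* (-2.26 ± 0.59) and *Nr5a1* (-2.19 ± 0.59) had the same layout, with replicate 2 at 18.4 and 12.2 FPM and the other 2 mice on dox at 1.65 and 2.35 FPM and at 1.10 and 0.995 FPM. Neither was called (adjusted p = 0.128 and 0.135), and without replicate 2 they stood at -1.28 and -1.18. None of these 4 genes, *Fshb* included, overlapped between the groups, and the 1 library that stood apart moved the value of each.

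Of the 8 gonadotroph markers tested, 2 were called lower and 0 higher, and 7 had an unadjusted p under 0.05, all on the lower side, beside 0.0358% and 6.28% of all genes. Such a p was found for 6 of the 8 without 16w +dox replicate 2, beside 4.17% of all genes. Their median log2 fold change was -2.24, and -1.42 without 16w +dox replicate 2. The exception was the transcription factor gene *Foxp2*, at 0.07. The summed level of the list was 44.4 to 120 FPM on dox and 21.1 to 25.9 FPM at 1d -dox. In bulk tissue, fewer gonadotrophs and less RNA per gonadotroph cannot be told apart.

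The same genes were read in other mice of the same sexes. *Lhb* was at 21.0, 7.77 and 24.5 FPM in the males at 3d -dox and at 0.308, 0.0779 and 0.225 FPM in the females at 5d -dox, a log2 difference of -4.56 (adjusted p = 9.96e-05). *Fshb* differed by -4.93 (adjusted p = 0.00270) and *Tgfbr3l* by -3.25 (adjusted p = 0.00313) in that contrast, where 2.92% of all genes had an adjusted p under 0.05 on the lower side. In the long-term table, whose 12 mice were of both sexes within 2 of the 3 conditions, females were lower than males for *Fshb* by -4.50 (adjusted p = 0.000734), *Lhb* by -3.02 (adjusted p = 0.0407) and *Tgfbr3l* by -2.37 (adjusted p = 0.0300), beside 0.0392% of all genes at an adjusted p under 0.05 on the lower side. The median of the list was -3.11 at 5d -dox relative to 3d -dox and -2.27 in long-term females relative to males. Females were thus lower in each of these comparisons, and at 1d -dox the sex and the day off dox cannot be told apart. Between the males, the median of the list at 3d -dox relative to 16w +dox was 0.89.

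**Figure D3:**
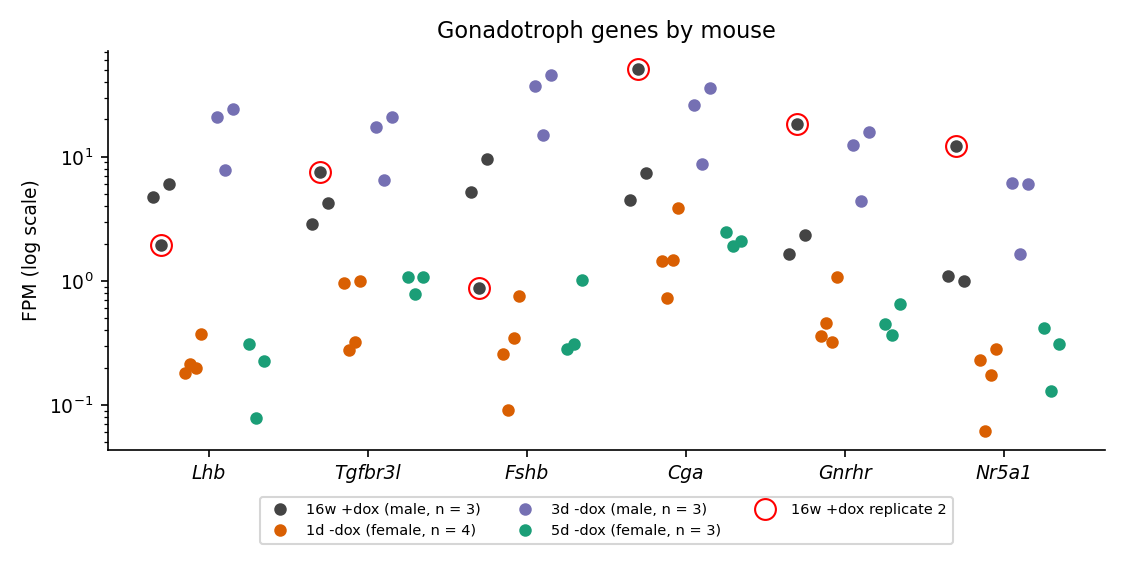
Levels (FPM, log scale) of 6 gonadotroph genes in each short-term mouse, colored by group, with 16w +dox replicate 2 ringed in red. For each gene the 4 mice at 1d -dox lie below the 3 mice at 16w +dox, and the females at 5d -dox lie below the males at 3d -dox.

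Somatotrophs, which make growth hormone, gave lower values as well. *Gh* was at 175, 85.4 and 161 FPM on dox and at 84.8, 29.0, 17.6 and 75.8 FPM at 1d -dox, with the nearest mice of the 2 groups almost level. Its log2 fold change of -1.64 ± 0.64 was not called (adjusted p = 0.286). *Pou1f1*, the transcription factor of somatotrophs, lactotrophs and thyrotrophs, stood at -1.495 (adjusted p = 0.251). Each of the 4 somatotroph markers tested had an unadjusted p under 0.05 on the lower side, beside 6.28% of all genes, with a median of -1.51 that came to -0.83 without 16w +dox replicate 2, where 1 of the 4 kept such a p. The lactotroph hormone gene *Prl* (-0.97) and the thyrotroph gene *Tshb* (-0.19) overlapped between groups and turned to 0.10 and 0.08 without that library. The median of the somatotroph list was -2.15 at 5d -dox relative to 3d -dox and 0.02 in long-term females relative to males.

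Genes of vessels and of their wall cells formed the second group on the lower side. *Cdh5*, which encodes the cadherin that joins endothelial cells, was at 5.37, 6.92 and 5.90 FPM on dox and at 2.76, 2.29, 3.19 and 2.06 FPM at 1d -dox. It was lower by 1.10 on the log2 scale (SE 0.18, adjusted p = 0.0420), but leaving out 16w +dox replicate 2 gave -1.01 (adjusted p = 0.111), which was not called. *Mylk*, the myosin light chain kinase of contractile cells, was at 4.92, 7.88 and 4.72 FPM on dox and at 1.96, 2.53, 2.99 and 2.46 FPM at 1d -dox, and was lower by 1.06 (SE 0.17, adjusted p = 0.0401). *Mylk* was highest in that library, and the call was lost without it (-0.84, adjusted p = 0.0923). Neither gene overlapped between groups, and both means were 2.35-fold lower.

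Of the 31 collagen and matrix genes tested, 1 had an adjusted p under 0.05 on the lower side, short of the fold limit. This was *Sparc*, a secreted matrix glycoprotein. It was at 17.7, 19.4 and 17.9 FPM on dox and at 7.55, 8.58, 12.6 and 8.63 FPM at 1d -dox (-0.96, adjusted p = 0.0373). Also short of the fold limit, *Hspg2*, which encodes perlecan of basement membranes, was at 19.8, 30.6 and 20.7 FPM against 11.9, 10.8, 13.96 and 12.0 FPM (-0.91, adjusted p = 0.0420). The Wnt receptor gene *Fzd7* was lower by a like amount (-0.90, adjusted p = 0.0435). When 16w +dox replicate 2 was left out, the adjusted p was 0.0923 for *Sparc* (-0.92), 0.0973 for *Hspg2* (-0.72) and 0.113 for *Fzd7* (-0.82), so none of the 3 passed. The basement membrane collagen gene *Col4a1* (-0.83, adjusted p = 0.0779) and the fibrillar collagen genes *Col1a1* (-1.16), *Col1a2* (-1.08) and *Col3a1* (-1.09) did not overlap between groups and were not called.

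Over the lists, 8 of 13 endothelial markers, 9 of 11 markers of pericytes and smooth muscle, 4 of 7 fibroblast markers and 17 of 31 collagen and matrix genes had an unadjusted p under 0.05 on the lower side, beside 6.28% of all genes, and 0 had one on the higher side. The medians were -0.53, -0.88, -0.88 and -0.61. Without 16w +dox replicate 2 the counts were 5, 9, 4 and 12, beside 4.17% of all genes, and the medians were -0.43, -0.71, -0.65 and -0.54. *Kdr*, the VEGF receptor gene, shows how this library weighed on single genes. It was at 5.59, 16.0 and 6.69 FPM on dox and at 3.35, 3.18, 4.84 and 3.65 FPM at 1d -dox (-1.09, adjusted p = 0.128), and at -0.65 without it. Macrophage markers had 2 of 13 at an unadjusted p under 0.05 on the lower side, beside 6.28% of all genes, with a median of -0.33. Their summed level was 29.0 to 35.2 FPM on dox and 17.1 to 29.5 FPM at 1d -dox. The summed level of the endothelial list was 39.6 to 61.2 FPM on dox and 23.2 to 29.6 FPM at 1d -dox.

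In the mice of the same sexes at later times, the medians at 5d -dox relative to 3d -dox were -1.09 for endothelial, -0.77 for pericyte and smooth muscle, -0.83 for fibroblast and -0.87 for collagen and matrix genes. *Cdh5* (-1.29, adjusted p = 0.00820) and *Mylk* (-0.90, adjusted p = 0.0168) had an adjusted p under 0.05 there. Between the males, at 3d -dox relative to 16w +dox, the 4 medians were 0.19, -0.25, 0.16 and 0.001, with *Cdh5* at 0.07 and *Mylk* at -0.01. In long-term females relative to males the 4 medians were -5.76e-05, 0.18, 0.34 and 0.42, and *Cdh5* (0.02) and *Mylk* (0.40) had adjusted p-values of 1.00. The long-term libraries were made from polyadenylated RNA and at other times on dox, and the difference between the contrasts was not tested.

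*Shisa9*, an auxiliary subunit of AMPA receptors, belongs to neither group. It was at 5.27, 3.26 and 6.48 FPM on dox and at 1.60, 1.74, 2.39 and 1.85 FPM at 1d -dox. It was lower by 1.16 on the log2 scale (SE 0.19, adjusted p = 0.0420) and 2.64-fold lower in the mean. Its difference at 5d -dox relative to 3d -dox was -0.74 (adjusted p = 0.0465), and in long-term females relative to males -0.49 (adjusted p = 1.00).

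On the higher side, *Hs3st6* had 0 reads in the 3 mice on dox and 30 to 36 reads in each mouse at 1d -dox, or 0.773, 1.04, 0.897 and 0.725 FPM. With a floor of 3 reads per library on dox, it was at least 11.1-fold higher. The adjusted p was 0.0221 with limma, and edgeR did not call it. It was at 0.282, 0.408 and 0.206 FPM in the males at 3d -dox and at 0, 0.467 and 0.0281 FPM in the females at 5d -dox, which overlapped.

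*Basp1*, a membrane protein gene of growing nerve endings, had the smallest p of all genes. It was at 8.29, 10.1 and 8.73 FPM on dox and at 16.96, 16.3, 16.8 and 14.7 FPM at 1d -dox, 1.79-fold higher (log2 fold change 0.81 ± 0.10, adjusted p = 0.0191). It stood at 12.3 to 15.9 FPM at 3d -dox and at 13.03 to 15.3 FPM at 5d -dox, with a difference of 0.07 between these times, so that the males at 3d -dox were also above the males on dox. *Dgat2*, which completes triglyceride synthesis, was at 4.64, 4.25 and 3.93 FPM against 7.01, 7.42, 7.88 and 7.04 FPM (0.72, adjusted p = 0.0373). The linker histone gene *H1fx* (0.88, adjusted p = 0.0256) differed in the same direction at 5d -dox relative to 3d -dox (1.10, adjusted p = 0.00313), beside 3.72% of all genes with an adjusted p under 0.05 on that side, and *H2afx*, the histone variant that marks DNA breaks, was 0.69 higher (adjusted p = 0.0496). For *H2afx* the males at 3d -dox were also above the males on dox (17.1 to 20.7 against 11.6 to 16.7 FPM), while *Dgat2* and *H1fx* overlapped between these males. *Basp1* without 16w +dox replicate 2 kept an adjusted p under 0.05 (0.00408), while the adjusted p was 0.0923 for *Dgat2*, 0.0517 for *H1fx* and 0.113 for *H2afx*.

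Further genes with small p-values and no overlap between the groups were not called. *Dclk3*, a kinase gene, was at 1.02, 0.401 and 0.485 FPM on dox and at 3.97, 6.02, 1.72 and 2.41 FPM at 1d -dox (1.74, adjusted p = 0.0547), and its difference at 5d -dox relative to 3d -dox was -1.45. It stood at 3.12 to 3.95 FPM in the males at 3d -dox, also above the males on dox. In the females at 5d -dox it was at 0.561 to 1.45 FPM. The small nucleolar RNA *Snora64* (1.21, adjusted p = 0.0547) lies within a host gene, so reads of the host may count toward it. *Scand1* (1.01), *Samd1* (0.66), *Zfp36l2*, which encodes an RNA decay factor (0.45), and *Hnrnpa0* (0.37) had adjusted p-values of 0.0536 to 0.0570. The males at 3d -dox were above the males on dox for *Zfp36l2* (15.2 to 15.9 against 9.67 to 10.4 FPM). The same held for *Samd1* (10.9 to 11.2 against 6.55 to 10.2 FPM), while *Scand1* and *Hnrnpa0* overlapped between these males. On the lower side *Rab26*, a GTPase of secretory vesicles, was at 3.77, 3.69 and 3.14 FPM on dox and at 1.86, 0.275, 1.32 and 0.538 FPM at 1d -dox (-1.56, adjusted p = 0.0713). The transferrin gene *Trf* (-0.92), the collagen receptor gene *Itga1* (-0.89), *Tle2*, a co-repressor gene (-0.75), and the transcription factor gene *Tbx2* (-0.73) had adjusted p-values of 0.0716 to 0.0779.

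**Figure D4:**
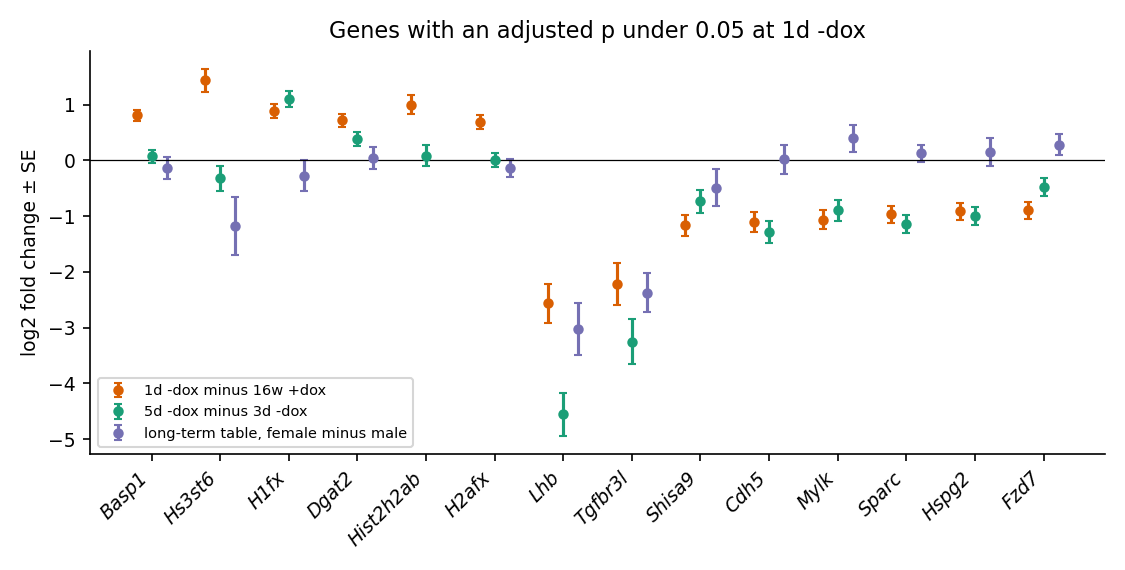
Log2 fold change ± SE of the 14 genes with an adjusted p under 0.05, in 1d -dox relative to 16w +dox, in 5d -dox relative to 3d -dox, and in long-term females relative to males. *Lhb* and *Tgfbr3l* lie below -2 in the 3 comparisons, *Cdh5* and *Mylk* lie below 0 in the short-term comparisons alone, and *Basp1* lies near 0 outside the first. *Hist2h2ab* has no long-term value.

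Replication-dependent histone genes, which are transcribed in S phase and whose transcripts lack a poly(A) tail, lay mostly above 0. Of the 58 clustered histone genes tested, 40 had an unadjusted p under 0.05 on the higher side and 0 on the lower side, beside 6.78% and 6.28% of all genes, and 11 did not overlap between groups, beside 5.6% of all genes. The median log2 fold change was 0.49 and 55 of the 58 lay above 0. *Hist2h2ab* had an adjusted p of 0.0448 just short of the fold limit, and was at 1.97, 2.54 and 2.86 FPM on dox and at 4.79, 4.28, 6.46 and 6.17 FPM at 1d -dox. Its adjusted p was 0.0973 when 16w +dox replicate 2 was left out. *Hist1h2ai* (1.16, adjusted p = 0.0543) and *Hist1h2ad* (1.28, adjusted p = 0.0570) were not called. Many of these genes are near-identical copies, so the reads of single members are uncertain. The median over the family was -0.35 in 16w +dox replicate 2, relative to the mean of the mice on dox, and 0.10 in 1d -dox replicate 4, the lowest of its group. Without 16w +dox replicate 2, 23 of the 58 had an unadjusted p under 0.05, beside 4.61% of all genes, with a median of 0.32. Between the males, the family median at 3d -dox relative to 16w +dox was 0.19. There *Hist2h2ab* (3.32 to 4.98 against 1.97 to 2.86 FPM) and *Hist1h2ai* (7.32 to 10.3 against 3.88 to 6.58 FPM) did not overlap. The family median was 0.12 at 5d -dox relative to 3d -dox. In long-term females relative to males, from polyadenylated RNA, it was -0.02.

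RB and E2F control many genes of replication and mitosis. Of 94 genes of S phase and G2/M, 81 lay above 0, 13 lay below 0 and none was called. Their median was 0.21, and 0.09 without 16w +dox replicate 2, beside -0.0018 and 0.0024 over all genes. Genes of the cell cycle vary together, so their signs are not separate observations. *Pcna*, the sliding clamp of replication, was at 27.2, 20.2 and 26.6 FPM on dox and at 32.8, 33.5, 36.0 and 24.7 FPM at 1d -dox (0.36, adjusted p = 0.250). *Mcm3* of the replicative helicase (0.35, adjusted p = 0.292), the S phase cyclin gene *Ccne2* (0.34), the mitotic kinase gene *Cdk1* (0.34) and *E2f8*, an E2F target and repressor (0.50, adjusted p = 0.290), likewise overlapped between the groups. In these 5 genes 1d -dox replicate 4 had the lowest value of its group.

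Of 42 S phase genes, 13 had an unadjusted p under 0.05 on the higher side and 0 on the lower side, beside 6.78% and 6.28% of all genes, with a median of 0.24. The helicase gene *Mcm7* had the smallest p of them and was at 21.0, 20.4 and 19.96 FPM on dox and at 26.6, 27.3, 26.3 and 22.03 FPM at 1d -dox (0.31, adjusted p = 0.124). Of 52 G2/M genes the count was 6, with a median of 0.18, and *Mki67*, the proliferation marker, was at 0.26 (adjusted p = 0.596). These counts depended on 16w +dox replicate 2, whose median deviations from the mean on dox were -0.21 for S phase and -0.24 for G2/M genes. Without it they were 6 of 42 and 1 of 52, beside 4.61% of all genes, with medians of 0.13 and 0.04. The E2F and DP factors (median 0.07, 1 of 10 at an unadjusted p under 0.05) and the pocket proteins with the DREAM and MuvB subunits (median 0.05, 0 of 9) lay near 0. Among the regulators of G1, *Cdk2* was at 0.34, the D-type cyclin gene *Ccnd2* at -0.57 (adjusted p = 0.214) and the inhibitor gene *Cdkn2b* at -0.48, none of them called.

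Immediate-early genes, which respond within minutes to signals and to handling of the tissue, gave a median of 0.51, with 8 of 28 at an unadjusted p under 0.05 on the higher side and 1 on the lower side, beside 6.78% and 6.28% of all genes. *Atf3* was at 1.35, 1.47 and 1.30 FPM on dox and at 4.67, 3.51, 4.01 and 4.23 FPM at 1d -dox, without overlap (1.29, adjusted p = 0.135). *Egr1*, named after its values were seen, was at 12.6, 70.0 and 12.6 FPM against 119, 38.3, 91.5 and 60.4 FPM (1.64, adjusted p = 0.304), and at 2.45 without replicate 2 (adjusted p = 0.194). *Fos* overlapped too (0.76, adjusted p = 0.509). The median of the immediate-early list was 0.17 at 5d -dox relative to 3d -dox and 0.44 in long-term females relative to males. Between the males, at 3d -dox relative to 16w +dox, it was 0.18.

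Cholesterol synthesis genes lay mostly above 0, with 7 of 20 at an unadjusted p under 0.05 on the higher side (6.78% of all genes), 9 higher without overlap (5.6% of all genes) and a median of 0.28. The first count was 2 of 20 without 16w +dox replicate 2, beside 4.61% of all genes, with a median of 0.26. The metallothionein gene *Mt1*, a target of glucocorticoids and metals, was at 32.9, 33.5 and 31.4 FPM against 52.2, 54.1, 39.0 and 57.4 FPM (0.61, adjusted p = 0.0769). Heat shock genes had 4 of 14 at an unadjusted p under 0.05 on the lower side, beside 6.28% of all genes, and a median of -0.19, and among them was the chaperone gene *Hspa8* (-0.58, adjusted p = 0.0716). Without 16w +dox replicate 2 the heat shock count was 6 of 14, beside 4.17% of all genes, with a median of -0.28.

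Other groups were close to 0 in the median. The values were 0.04 for respiratory chain subunits (76 genes), -0.06 for cytosolic ribosomal proteins (74), -0.05 for proteasome subunits (36), -0.05 for p53 targets (22), -0.13 for interferon-stimulated genes (39) and 0.11 for neurons and glia of neighboring brain (7). Each of these lists had 0 to 5 genes at an unadjusted p under 0.05 on either side. The shares over all genes were 6.78% on the higher side and 6.28% on the lower side. The brain list had 2 of 7 on the lower side. Interferon-stimulated genes had 3 of 39 there, and 5 of 39 without 16w +dox replicate 2, beside 4.17% of all genes.

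**Figure D5:**
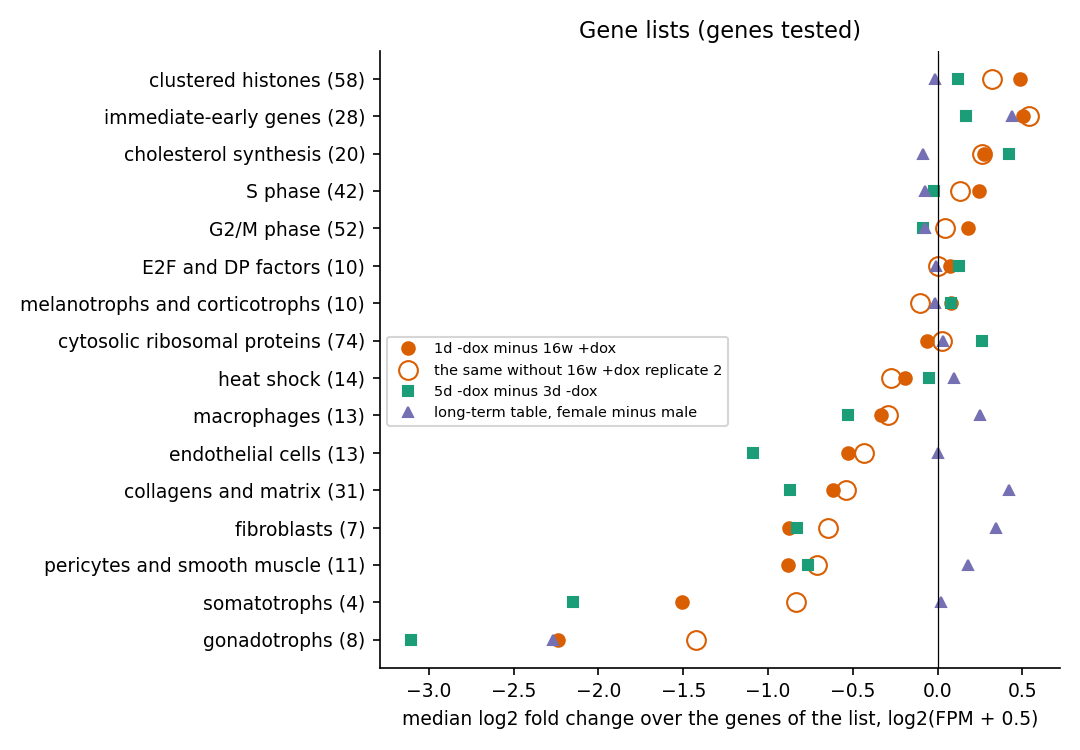
Median log2 fold change of 16 gene lists (number of genes tested in parentheses) in 1d -dox relative to 16w +dox with and without 16w +dox replicate 2, in 5d -dox relative to 3d -dox, and in long-term females relative to males. Clustered histones (0.49) and immediate-early genes (0.51) lie highest and gonadotrophs (-2.24) lowest at 1d -dox, and vessel and matrix lists lie below 0 in the short-term comparisons but near or above 0 in the long-term one.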

How the data were processed

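RNA of snap-frozen pituitaries was sequenced by the study after ribosomal RNA depletion (short-term mice) or poly(A) enrichment (long-term mice), as paired reads of 150 bases. The authors aligned these to the mouse build mm10 (STAR 2.5.1b, default settings), filtered RefSeq genes on low counts, and deposited a signal per gene and mouse, called FPM, which is scaled by library. The counting tool and its use of strand are not given in the sources used here, so overlapping and antisense genes cannot be separated. The 4 summary lines of the short-term table that name no gene were dropped.

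Whole reads were recovered from these values, since 100% of the 182091 short-term values came within 0.1 of a whole read when divided by the value of a single read. Log2(FPM + 0.5) was fitted with limma 3.58.1 (R 4.3.3, trended prior variance, Benjamini-Hochberg adjustment) over the 13 short-term mice in 1 fit, for the 13958 of 14007 genes that had 10 or more recovered reads in over 50% of the mice of a group. Fold changes are on this scale, which understates the change of low genes. DESeq2 1.42.0 and edgeR 4.0.16 on the recovered reads, other scalings, pseudocounts and filters, a fit of only the 2 groups, a fit with the replicate number as a block and leaving out each mouse were alternatives. On simulated reads with changes of 1.5 and 2 on the log2 scale over 13684 genes, limma recovered 98 of 100 genes at each size and called 3 unchanged genes. The changes were placed only in genes well above the read filter, and no library that stood apart was simulated. The recovery therefore does not cover genes of few reads, such as *Hs3st6*, or the weight of 16w +dox replicate 2. Long-term females and males were compared with limma over 12 mice, with the condition as a covariate. Of the 14007 gene names, 13474 matched the RefSeq table of GRCm38.p6.

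Groups, replicate numbers and sexes came from the sample labels. The text names *GFP* and *Rb1*, 5 cell cycle genes that the study shows (*Ccne2*, *Pcna*, *Mcm3*, *Cdk1*, *E2f8*), the called genes and, up to 15 per direction, the genes with the smallest p among those without overlap, and from each list the members with the smallest p and the defining markers. Any further gene was picked with its values known, and some genes are not reported here. The comparison and the lists were chosen with earlier results of these data known. Replicates within a group differed by more than sampling noise (chi-square of their reads over its degrees of freedom, 4.01 to 27.0), so each counted as a mouse of its own. The floor of 3 reads covers counting error only.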

Additional observations from a re-analysis of the deposited data

Results flagged for a closer look

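In 64 quantities, the 4 mice at 1d -dox were screened for 1 mouse far from the other 3 (Dixon's criterion), which chance alone meets in about 1 group in 20. The criterion was met by 4 quantities. *GFP* was at 310 FPM in 1d -dox replicate 2 and at 670.4 to 741.0 FPM in the other 3 mice, so the reporter was lowest in that mouse by a wide gap. *Cdk1*, the mitotic kinase gene, was at 7.531 FPM in 1d -dox replicate 4 and at 10.3 to 10.8 FPM in the others. *Ciita*, which encodes the activator of MHC class II transcription, was at 5.336 FPM in 1d -dox replicate 1 and at 0.122 to 0.631 FPM in the others. The summed level of the 7 MHC class II genes was 179.3 FPM in the same mouse and 6.20 to 28.2 FPM in the others, beside 22.6 to 37.2 FPM in the mice on dox. *Ciita* is 1 of these 7 genes and gave 5.336 of the 179.3 FPM, so these flags are not separate. *Ciita* and the class II genes, both read in antigen-presenting cells, were thus high together in 1 mouse and were not called between the groups. Their part in other results was not tested.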

How the results depend on the processing

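The counts of called genes moved with most choices. Against 1 higher and 5 lower gene, dropping the fold limit gave 6 and 8, DESeq2 gave 29 and 84, edgeR 0 and 5, scaling by totals of reads 1 and 1, TMM scaling 2 and 5, a pseudocount of 0.1 gave 8 and 6 and one of 1 gave 0 and 2, a filter of 10 reads in every mouse (12231 genes) 0 and 3, and the 2 groups alone 2 and 1. DESeq2 without 16w +dox replicate 2, added after seeing the data, gave 17 and 18. At 0 higher genes, an unadjusted p under 0.05 was found for 1878 genes with edgeR, 1807 with the pseudocount of 1 and 1616 with the filter. Leaving out each mouse in turn gave 0 to 7 higher and 0 to 6 lower genes. Without 16w +dox replicate 3 the counts were 7 and 4, without 1d -dox replicate 3 they were 2 and 6, and without 1d -dox replicate 4 they were 5 and 3. The cause was not tested.

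With the replicate number as a block the counts were 5 and 3, and 2 of the 6 calls were kept. Deviations of same-numbered mice correlated at 0.089, 0.098 and 0.12, and those of differently numbered mice at -0.151 to 0.112. The mouse 16w +dox replicate 1 correlated best with 1d -dox replicate 3 (0.112). The labels do not say that the numbers pair mice, and whether same-numbered mice share a batch was not tested.

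*GFP* stayed lower and uncalled under the 18 alternatives (-1.24 to -0.81). *Rb1* ranged from -0.071 to 0.174 when 1 mouse was left out, and was at -0.028 with DESeq2 without 16w +dox replicate 2. In the same DESeq2 fit *Prl* turned to 0.37, *Tshb* to 0.58 and *Greb1* to 0.22. The ranges with 1 mouse left out were -1.70 to 0.10 for *Prl*, -0.40 to 0.075 for *Tshb*, -2.29 to 0.15 for *Greb1*, -0.20 to 0.092 for *Pomc* and -0.38 to 0.70 for *Ciita*. Over the other named genes and alternatives, 971 values kept direction and side of the threshold, 46 lost a call and 46 gained one. Of 628 list medians, 20 moved by more than the spread between mice. Genes of few reads, and 3 mice on dox, limit the precision.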
